A study of Mus musculus with 12 samples.

Results

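The core circadian clock genes were described in mouse kidney: Clock, Arntl, Npas2, Per2, Per3, Cry1, Cry2, Nr1d1, Nr1d2 and Dbp. Each was taken as the row of the deposited table that carries its symbol, which gave 10 of 55471 gene identifiers. All 10 were among the 18093 genes that passed the filter on low values. RNA came from left kidneys of C57/BL6 mice in a model of kidney injury called unilateral ureteral obstruction (UUO), in which the ureter of that side is clamped. Day 0 kidneys are taken here as those before obstruction. Sprr2f knockout (KO) kidneys were taken at day 5 (n = 3 libraries) and at day 0 (n = 4), and wild type (WT) kidneys at day 5 (n = 3) and at day 0 (n = 2).

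The surgical protocol speaks of 8 to 12 week old Sprr2f-KO animals and does not mention the WT animals. The labels give no hour of harvest, do not say whether day 0 kidneys had a sham operation, and do not say how the knockout was made. Nothing in the labels says which mouse a replicate came from, and the tests therefore see only library-to-library spread, which may be technical. Sprr2f, the targeted gene, had 0 to 4.07 reads per 1e6 mapped to genes (CPM) in KO day 5 libraries, against 26.9 to 58.8 CPM in WT day 5 libraries. The 4.07 CPM was in KO day 5 replicate 3. At day 0 it had 0 to 0.262 CPM in KO and 0 to 0.106 CPM in WT, so at day 0 it does not check the genotype labels. The series title speaks of female mice, yet 7 of 12 libraries carried Y-linked transcripts and 5 carried Xist: Y-linked transcripts were found in 1 of 3 KO day 5, 4 of 4 KO day 0, 1 of 3 WT day 5 and 1 of 2 WT day 0 libraries. This pattern differs in make-up between the groups of every comparison except KO against WT at day 5, and values with it as a covariate are given at least where they change a member's call.

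The mammalian clock is a loop of transcription factors. CLOCK, or its relative NPAS2, pairs with BMAL1, the product of Arntl, and the pair binds E boxes in the promoters of the Per, Cry, Nr1d and Dbp genes. PER and CRY proteins then inhibit the pair, while NR1D1 and NR1D2 (REV-ERB alpha and beta) repress Arntl, Npas2 and Cry1 through ROR elements, and DBP activates genes that carry D boxes. The transcripts of Dbp, Nr1d1 and Per3 therefore peak at other hours of the day than those of Arntl and Npas2, and in the kidney the clock is known for daily rhythms of filtration and of salt and water excretion.

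RefSeq promoter windows (GRCm38.p6, from 250 bases before to 50 bases after a transcript start) were matched for 9 of the 10 genes (all but Per2), in 12 windows. They were searched on both strands for 4 motifs of the loop: the E box CACGTG, the related E' box CACGTT, the D box TTATGTAA or TTACGTAA, and the ROR element by its consensus. A perfect E box was found in 1 of the 12 windows, that of Cry1, and in none of the others. It is shown in capitals in the 100 bases at chr10:85185065-85185164 (minus strand, upstream of the gene).
Cry1: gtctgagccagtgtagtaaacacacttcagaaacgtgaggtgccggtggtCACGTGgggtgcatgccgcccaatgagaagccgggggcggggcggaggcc
The window of Per3 held the D box 2 times, in capitals in the 100 bases at chr4:151044796-151044895 (minus strand, upstream of the gene).
Per3: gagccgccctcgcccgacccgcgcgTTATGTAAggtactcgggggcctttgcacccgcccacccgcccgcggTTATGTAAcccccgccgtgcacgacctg
The window of Arntl held a ROR element 27 bases after the start, in capitals in the 30 bases at chr7:113207528-113207557 (plus strand).
Arntl: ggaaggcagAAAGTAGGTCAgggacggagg
These 3 stretches are shown because they carry the 3 kinds of element through which the loop is known to act. Of all 32851 RefSeq windows of the same length, 7.15% held the E box, 1.06% the D box and 0.384% the ROR element. The E' box, held by 4.68% of all windows, was found for Cry1, Cry2 and Nr1d1. A match is a description of these letters, and binding was not measured here.

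Values are scaled CPM, which is the deposited CPM divided by a trimmed-mean (TMM) factor of each library. Libraries held 16567256 to 19398882 reads, so that 1 read was worth 0.0516 to 0.0604 CPM, and the members had between 40 reads (lowest library of Cry1) and 1976 reads (highest library of Nr1d2). Per kilobase of exon, Nr1d1, Nr1d2 and Dbp had the highest averages of the members in every group. Nr1d1 averaged 9.74 ± 3.05 scaled CPM per kb in KO day 5, 16.1 ± 3.53 in KO day 0, 9.28 ± 1.0 in WT day 5 and 25.3 ± 11.1 in WT day 0 kidneys (SD, n = 3, 4, 3 and 2). Nr1d2 averaged 13.3 scaled CPM per kb in KO day 5, 15.0 in KO day 0, 13.2 in WT day 5 and 20.4 in WT day 0 kidneys. Dbp averaged 6.30 scaled CPM per kb in KO day 5, 8.92 in KO day 0, 8.58 in WT day 5 and 12.9 in WT day 0 kidneys. Arntl and Cry1 were at the low end, with 1.33 ± 0.332 and 1.91 ± 0.608 scaled CPM per kb in KO day 5 kidneys and 1.19 ± 0.0954 and 0.770 ± 0.0632 in WT day 0 kidneys (SD, n = 3 and 2).

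In KO day 5 kidneys the per-kilobase order was Nr1d2, Nr1d1, Dbp, Per2, Clock, Per3, Cry2, Npas2, Cry1 and Arntl, and the libraries of every pair of neighbours overlapped. In KO day 0 kidneys it was Nr1d1, Nr1d2, Dbp, Clock, Npas2, Cry2, Per2, Per3, Arntl and Cry1. There the libraries of neighbours were apart between Nr1d2 and Dbp, between Dbp and Clock, and between Arntl and Cry1, and overlapped for all other neighbours. In WT day 5 kidneys the order was Nr1d2, Nr1d1, Dbp, Per2, Per3, Cry2, Clock, Cry1, Npas2 and Arntl. The neighbours that overlapped were Nr1d1 with Dbp, Per2 with Per3, Per3 with Cry2, Clock with Cry1 and Cry1 with Npas2. In WT day 0 kidneys the order was Nr1d1, Nr1d2, Dbp, Per2, Per3, Clock, Cry2, Arntl, Npas2 and Cry1. Only Nr1d1 with Nr1d2, Per3 with Clock and Arntl with Npas2 overlapped there, with 2 libraries in the group.

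**Figure D1:**
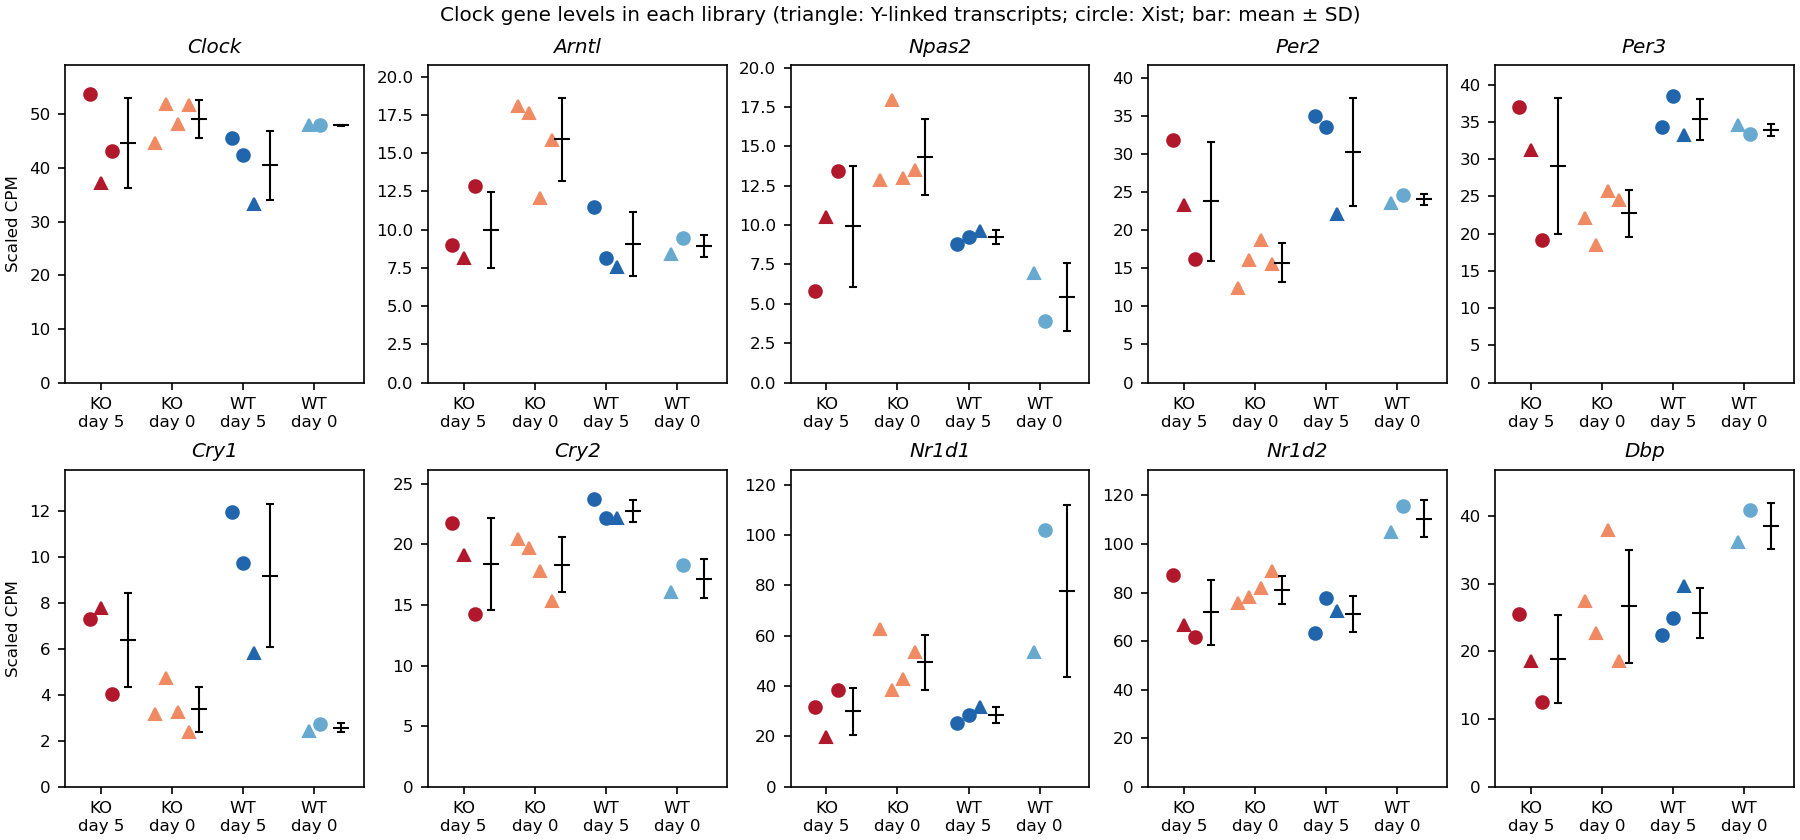
Scaled CPM (vertical axis, linear from 0) of the 10 clock genes in each library of the 4 groups (horizontal axis), with triangles for libraries with Y-linked transcripts, circles for libraries with Xist and bars for the mean ± SD of a group. Cry1 sits at 5.83 to 11.9 in WT day 5 libraries, above both WT day 0 libraries at 2.42 and 2.72, while every gene has overlapping libraries between KO day 5 and KO day 0.

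The comparison of day 5 with day 0 asks how the clock genes differ after obstruction, and it was made in each genotype. In KO kidneys 2 of the 10 members were called higher at day 5 (Per2 and Cry1), 2 were called lower (Arntl and Nr1d1) and 6 were not called, at an adjusted p under 0.05 in limma. Of all 18093 genes tested, 29.4% were called higher and 25.4% lower in this comparison. In WT kidneys 1 member was called higher (Cry1), 2 were called lower (Nr1d1 and Nr1d2) and 7 were not called, where 24.5% of all genes were called higher and 22.6% lower. The share of members called, 4 of 10 in KO and 3 of 10 in WT, was thus below the share of all genes in both genotypes, and no test was run on these shares. The median log2 fold change of the members was -0.17 in KO, against 0.07 over all genes, and 0.03 in WT, against 0.04 over all genes.

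Scaling changes the sign of some of these values. The mitochondrial share of a library was 3.89% to 4.34% in day 5 kidneys, against 8.31% to 9.26% in day 0 kidneys. The TMM factors spanned 1.13 to 1.19 for the obstructed libraries and 0.795 to 0.897 for the others. With library size in place of TMM the median of all genes was 0.46 in KO and 0.40 in WT on the log2 scale, so directions below are relative to the TMM scaling.

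Cry1, the cryptochrome that is the stronger repressor of CLOCK and BMAL1, was the one member called higher in both genotypes. It had 11.9, 9.72 and 5.83 scaled CPM in WT day 5 kidneys, against 2.42 and 2.72 in WT day 0 kidneys. All 3 WT day 5 libraries were above both WT day 0 libraries, and its level rose by 1.60 ± 0.33 on the log2 scale (SE, limma adjusted p = 0.00147). In KO kidneys Cry1 had 7.27, 7.79 and 4.04 scaled CPM at day 5, against 3.15, 4.71, 3.24 and 2.38 at day 0. Replicate 3 of KO day 5 lay below the highest KO day 0 library, and the difference was 0.81 ± 0.28 (adjusted p = 0.0245). The KO call was lost in 7 of 21 alternatives. These were no filter on low values, the sex-chromosome pattern as a covariate (0.70, adjusted p = 0.0845), and leaving out KO day 5 replicate 1 (0.70) or 2 (0.65) or KO day 0 replicate 1 (0.78), 3 (0.78) or 4 (0.66). The WT call held in all 21 (1.39 to 1.98).

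Cry2, the other cryptochrome, had 23.8, 22.2 and 22.2 scaled CPM in WT day 5 kidneys, against 16.0 and 18.3 in WT day 0 kidneys. These libraries did not overlap, and the difference of 0.40 ± 0.17 missed the threshold (adjusted p = 0.0699). It was called in 4 of 21 alternatives, among them library size in place of TMM (0.81, adjusted p = 0.00115) and only the compared groups in the fit (0.39, adjusted p = 0.0325). In KO kidneys it had 21.8, 19.1 and 14.3 scaled CPM at day 5, against 20.5, 19.7, 17.8 and 15.4 at day 0. The KO libraries overlapped throughout, with a difference of -0.01 ± 0.14 (adjusted p = 0.964) that became 0.43 (adjusted p = 0.0147) with library size in place of TMM.

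Per2, whose protein pairs with the cryptochromes to inhibit the loop, had 31.9, 23.3 and 16.3 scaled CPM in KO day 5 kidneys, against 12.5, 16.1, 18.7 and 15.6 in KO day 0 kidneys. Replicate 3 of KO day 5 lay inside the range of day 0 and the other two above it. Per2 rose by 0.55 ± 0.21 in KO kidneys (adjusted p = 0.0461), close to the threshold. The call was lost in 12 of 21 alternatives. They included leaving out any 1 of KO day 5 replicates 1 (0.31, adjusted p = 0.234) and 2 (0.54), KO day 0 replicates 1 (0.43), 2 (0.54) and 4 (0.52), WT day 5 replicate 2 (0.55) and both WT day 0 libraries in turn (0.52), and the fit with the sex-chromosome pattern as a covariate (0.39, adjusted p = 0.188). In WT kidneys Per2 had 35.1, 33.7 and 22.2 scaled CPM at day 5, against 23.6 and 24.6 at day 0, with overlapping libraries and a difference of 0.30 ± 0.26 (adjusted p = 0.37). With library size in place of TMM that WT value was called (0.71, adjusted p = 0.0328).

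Per3, a period gene that the loop is known to be able to do without, had 37.0, 31.2 and 19.1 scaled CPM in KO day 5 kidneys, against 22.1, 18.5, 25.7 and 24.5 in KO day 0 kidneys. The difference was 0.31 ± 0.18 (adjusted p = 0.169) with all libraries and 0.58 (adjusted p = 0.00326) without KO day 5 replicate 3, the lowest of its group. With library size in place of TMM the KO value of Per3 was also called (0.75, adjusted p = 0.00415). In WT kidneys it had 34.4, 38.4 and 33.3 scaled CPM at day 5, against 34.5 and 33.4 at day 0, and the groups lay on top of each other (0.06 ± 0.22, adjusted p = 0.858).

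Nr1d1, which encodes the repressor REV-ERB alpha, had 31.5, 19.9 and 38.5 scaled CPM in KO day 5 kidneys, against 62.7, 38.4, 43.0 and 53.5 in KO day 0 kidneys. Only replicate 3 of KO day 5 reached the lowest KO day 0 library, and Nr1d1 fell by 0.74 ± 0.25 on the log2 scale (adjusted p = 0.0227). The KO call was lost with library size in place of TMM (-0.29, adjusted p = 0.337), without KO day 5 replicate 2 (-0.47) and without KO day 0 replicate 1 (-0.63). In WT kidneys it had 25.5, 28.6 and 31.6 scaled CPM at day 5, against 53.6 and 102.0 at day 0. All WT day 5 libraries were below both WT day 0 libraries, which themselves differed widely, and Nr1d1 fell by 1.36 ± 0.29 (adjusted p = 0.00206). The WT call held in all 21 alternatives, from -1.83 without WT day 0 replicate 1 to -0.90 without WT day 0 replicate 2.

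Nr1d2, which encodes REV-ERB beta, had 63.3, 77.7 and 72.5 scaled CPM in WT day 5 kidneys, against 105.1 and 115.8 in WT day 0 kidneys. The groups did not overlap, and Nr1d2 fell by 0.63 ± 0.14 in WT kidneys (adjusted p = 0.00209), a call lost with library size in place of TMM (-0.21, adjusted p = 0.243). In KO kidneys it had 87.1, 66.8 and 61.5 scaled CPM at day 5, against 75.7, 78.2, 81.7 and 89.1 at day 0, with overlapping libraries (-0.19 ± 0.11, adjusted p = 0.183). Library size in place of TMM turned that KO value to 0.26.

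Arntl, whose product BMAL1 is the partner the loop cannot do without, had 8.99, 8.13 and 12.8 scaled CPM in KO day 5 kidneys, against 18.1, 17.6, 12.1 and 15.8 in KO day 0 kidneys. Replicate 3 of KO day 5 lay above replicate 3 of KO day 0 and below the other day 0 libraries. Arntl fell by 0.65 ± 0.19 in KO kidneys (adjusted p = 0.0112). That call was lost in 1 of 21 alternatives, library size in place of TMM (-0.22, adjusted p = 0.326), and with the sex-chromosome pattern as a covariate the value was -0.86 (adjusted p = 0.00289). In WT kidneys Arntl had 11.5, 8.16 and 7.58 scaled CPM at day 5, against 8.42 and 9.43 at day 0, and the difference was 0.00 ± 0.23 (adjusted p = 0.993).

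Npas2, which can stand in for CLOCK, had 5.82, 10.5 and 13.4 scaled CPM in KO day 5 kidneys, against 12.9, 17.9, 13.0 and 13.5 in KO day 0 kidneys. In WT kidneys it had 8.79, 9.27 and 9.64 scaled CPM at day 5, against 6.96 and 3.93 at day 0. The values ran opposite ways, with -0.57 ± 0.25 in KO (adjusted p = 0.0688) and 0.76 ± 0.30 in WT (adjusted p = 0.0509), and neither passed. The WT value was called in 8 of 21 alternatives, the KO value in 3, and the WT value was 1.13 without WT day 0 replicate 1 and 0.38 without WT day 0 replicate 2. With the sex-chromosome pattern as a covariate the WT value was called (0.81, adjusted p = 0.0235) and the KO value was -0.35 (adjusted p = 0.296).

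Clock, which encodes the partner of BMAL1 and is known to cycle little itself, had 53.8, 37.2 and 43.2 scaled CPM in KO day 5 kidneys, against 44.6, 52.0, 48.2 and 51.8 in KO day 0 kidneys (-0.15 ± 0.13, adjusted p = 0.346), with overlapping libraries. In WT kidneys it had 45.7, 42.4 and 33.4 scaled CPM at day 5, against 48.0 and 48.1 at day 0, a difference of -0.25 ± 0.15 (adjusted p = 0.195). Library size in place of TMM turned both values to positive, 0.30 in KO and 0.16 in WT. With the sex-chromosome pattern as a covariate both were called lower (-0.34 in KO, adjusted p = 0.0278, and -0.30 in WT, adjusted p = 0.0477).

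Dbp, an output factor that acts on D boxes, had 25.5, 18.5 and 12.5 scaled CPM in KO day 5 kidneys, against 27.5, 22.8, 37.9 and 18.6 in KO day 0 kidneys. In WT kidneys it had 22.4, 24.9 and 29.6 scaled CPM at day 5, against 36.1 and 40.9 at day 0. Values were lower at day 5 by a like amount in both genotypes and did not pass in either (-0.50 ± 0.24, adjusted p = 0.0975 in KO, and -0.58 ± 0.29, adjusted p = 0.115 in WT). The KO value was called without KO day 5 replicate 1 (-0.74, adjusted p = 0.0249) or KO day 0 replicate 4 (-0.68, adjusted p = 0.032), and was -0.24 without KO day 5 replicate 3 and -0.06 with library size in place of TMM. The WT value was called with only the compared groups in the fit (-0.59, adjusted p = 0.0146) and was -0.17 with library size. Dbp shares 18.0% of its exon bases with Sphk2 and Nr1d1 8.55% with Thra, each on the opposite strand. Whether counting used strand is not given in the sources used here, so how reads in these shared bases were counted is not known. Sphk2 averaged 53.1 and Thra 73.8 scaled CPM.

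**Figure D2:**
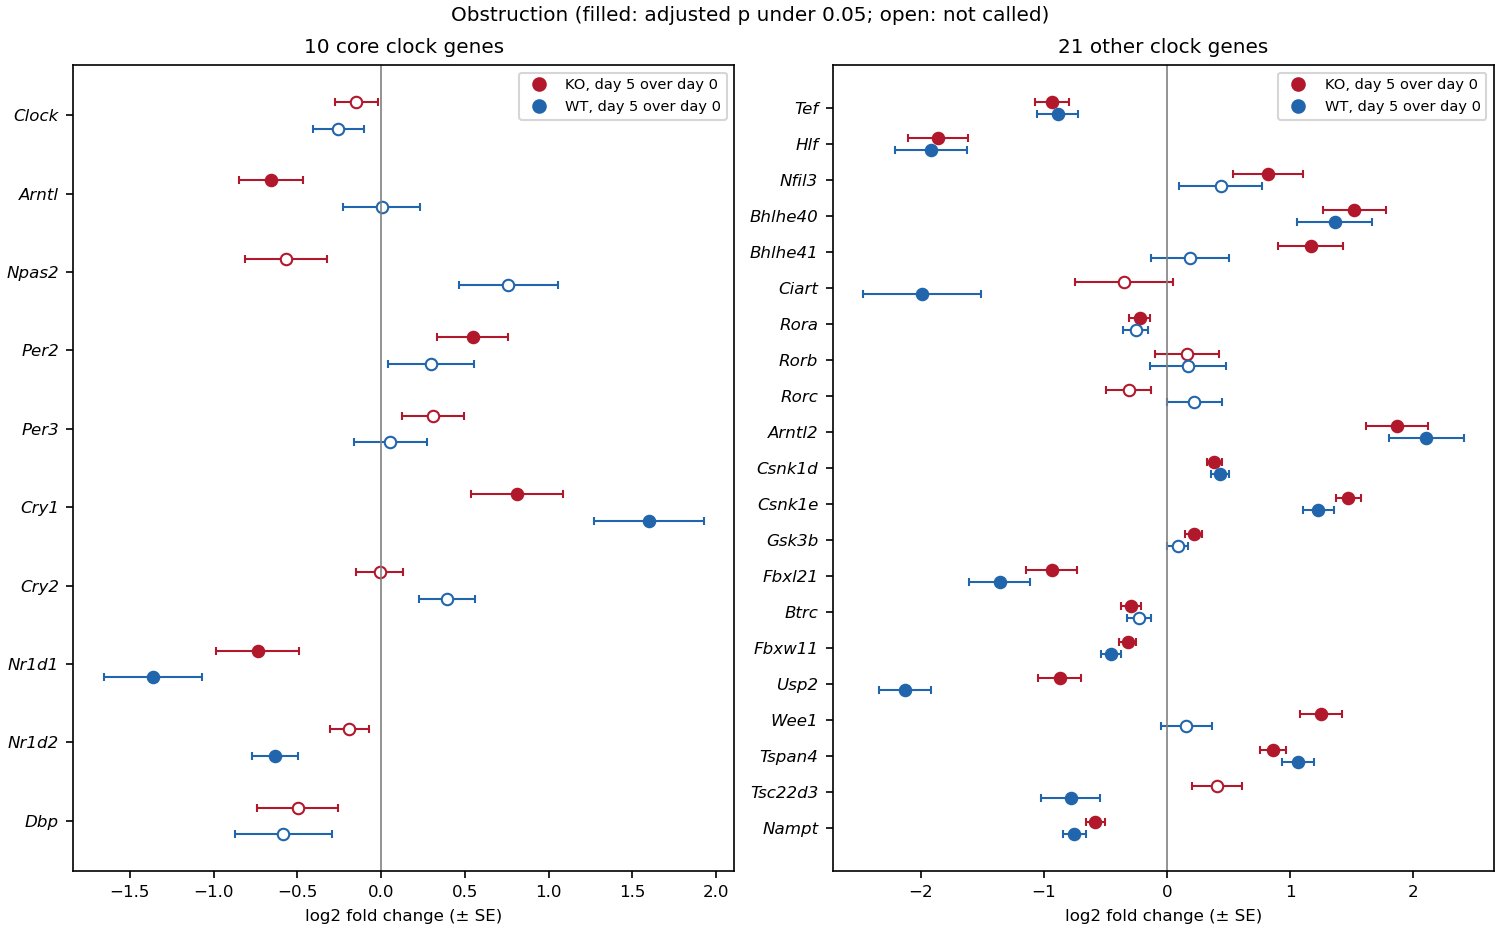
Log2 fold change of day 5 over day 0 with its standard error (limma, scaled CPM + 0.5) for the 10 core clock genes (left) and the 21 other clock genes (right) in KO (n = 3 and 4) and WT (n = 3 and 2) kidneys, filled where the adjusted p is under 0.05. Cry1 is called higher at 0.81 in KO and 1.60 in WT and Nr1d1 lower at -0.74 and -1.36. Among the core genes the signs of Clock in both genotypes, and of Nr1d2 and Cry2 in KO, turn with library size in place of TMM. On the right Hlf is lower at -1.86 and -1.92 and Arntl2 higher at 1.87 and 2.11.

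In KO, no member had day 5 libraries that stood fully apart from the day 0 libraries, where 55.1% of all tested genes did. In WT 7 of 10 members stood apart (Npas2, Cry1 and Cry2 above, Clock, Nr1d1, Nr1d2 and Dbp below), where 65.1% of all genes did with the smaller groups of 3 and 2. Replicate 3 of KO day 5 was the highest of its group for Arntl, Npas2 and Nr1d1 and the lowest for Per2, Per3, Cry1, Cry2, Nr1d2 and Dbp, and lay between the other 2 for Clock. It was also the KO library with the most Sprr2f (4.07 CPM). Without this replicate, 3 members were called higher in KO and 3 lower, and without replicate 1 of the same group 0 were called higher and 4 lower. Without KO day 5 replicate 2 or KO day 0 replicate 1 it was 0 higher and 1 lower, and without KO day 0 replicate 4 it was 0 higher.

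Markers of several cell types moved with obstruction as well. The summed level of 6 proximal tubule markers was 1864 to 3690 scaled CPM in KO day 5 kidneys, against 9649 to 10630 in KO day 0 kidneys, and 1575 to 2386 in WT day 5 kidneys, against 9139 to 10350 in WT day 0 kidneys, with all 6 called lower in each genotype. The 4 fibroblast markers summed to 1575 to 2564 in KO day 5 and 227.0 to 382.1 in KO day 0 kidneys, and to 1732 to 2760 in WT day 5 and 267.5 to 318.3 in WT day 0 kidneys, with all 4 called higher. Of 6 leukocyte markers 4 were called higher in KO (136.1 to 151.9 at day 5, 23.7 to 31.0 at day 0) and 5 in WT (119.5 to 170.8 at day 5, 25.9 to 29.1 at day 0). The 3 distal convoluted tubule markers were called lower in both genotypes. Of 2 thick ascending limb markers 2 were called lower in KO and 1 in WT. Other types moved less: in each genotype 2 of 4 collecting duct, 1 of 3 podocyte and 1 of 3 endothelium markers were called lower. Endothelium sums overlapped between the days in both genotypes, and podocyte sums in KO. None of these markers was at 0 in any library. No tested adrenal or adipocyte marker was called for obstruction in either genotype. Fewer cells of a type and less RNA per cell cannot be told apart in bulk kidney, and the part of cell composition in the clock values was not tested.

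KO was set against WT in the same state of obstruction to ask what the loss of Sprr2f goes with. At day 5 no member was called, nor was any gene (0% of 18093), and 0 of 10 members had an unadjusted p under 0.05, where 5.67% of all genes did. The edgeR test called 0 genes and DESeq2 called 51, but gave an adjusted p to 0 of the 10 members and so could call none. The day 5 values lay between -0.49 ± 0.29 for Cry1 (adjusted p = 0.972) and 0.14 ± 0.14 for Clock (adjusted p = 0.999), with a median of -0.16 over the 10 members, against 0.005 over all genes. Cry2 was the one member whose KO day 5 libraries (14.3 to 21.8 scaled CPM) all lay below the WT day 5 libraries (22.2 to 23.8), as the libraries of 9.94% of all genes stood apart. Its difference was -0.32 ± 0.15 (adjusted p = 0.897).

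At day 0, before obstruction, the genotypes stood further apart in the clock genes, without an adjusted call in limma. No member was called, where 0.0166% of all genes (3 genes) were. At an unadjusted p under 0.05 there were 5 of 10 members (Arntl, Npas2, Per2, Per3 and Nr1d2), where 15.0% of all genes passed. The same 5 genes had KO day 0 libraries that did not overlap with those of WT day 0, where 25.3% of all genes did not overlap.

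In the positive limb of the loop, KO day 0 kidneys had the higher values of Npas2 and Arntl. Npas2 had 12.9, 17.9, 13.0 and 13.5 scaled CPM in KO day 0 kidneys, against 6.96 and 3.93 in WT day 0 kidneys, a difference of 1.35 ± 0.28 on the log2 scale (adjusted p = 0.0874). It was the largest genotype difference among the 10 members. Arntl had 12.1 to 18.1 in KO day 0 kidneys, against 8.42 and 9.43 in WT day 0 kidneys (0.78 ± 0.22, adjusted p = 0.152). DESeq2 on the recovered reads called both, Npas2 at 1.41 (adjusted p = 0.00151) and Arntl at 0.85 (adjusted p = 0.0255), among 370 genes it called, while edgeR called no member and 3 genes in all. With the sex-chromosome pattern as a covariate, Npas2 was at 1.19 (adjusted p = 0.116) and Arntl at 0.94 (adjusted p = 0.103).

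Among the genes that the loop drives through E boxes, KO day 0 kidneys had the lower values of Per2, Per3 and Nr1d2. Per3 had 18.5 to 25.7 scaled CPM in KO day 0 kidneys, against 34.5 and 33.4 in WT day 0 kidneys (-0.58 ± 0.21, adjusted p = 0.225). Per2 had 12.5 to 18.7 in KO day 0 kidneys, against 23.6 and 24.6 in WT day 0 kidneys (-0.61 ± 0.24, adjusted p = 0.27). Nr1d2 had 75.7 to 89.1 in KO day 0 kidneys, against 105.1 and 115.8 in WT day 0 kidneys (-0.44 ± 0.13, adjusted p = 0.17). Nr1d1 (-0.60 ± 0.28, adjusted p = 0.336) and Dbp (-0.57 ± 0.27, adjusted p = 0.35) had values of the same sign with KO libraries reaching into the WT range. Cry1 (0.30 ± 0.31) and Cry2 (0.09 ± 0.16), which the loop also drives through E boxes, had values of the other sign. Clock was at 0.03 ± 0.15, and no member was called. The WT side of this comparison rests on 2 libraries: without WT day 0 replicate 1 the Npas2 difference was 1.74 (adjusted p = 0.0157) and 638 genes were called, and without replicate 2 it was 0.99 (adjusted p = 0.708). The Nr1d1 difference was -1.06 without WT day 0 replicate 1 and -0.13 without replicate 2, and -0.37 with the sex-chromosome pattern as a covariate. The only day 0 library with Xist was WT day 0 replicate 2, so the sex-chromosome pattern and that library cannot be told apart here. The hour of harvest is not in the labels, so genotype and hour of day cannot be told apart either. Summed distal convoluted tubule markers were 1620 to 2124 scaled CPM in KO day 0 kidneys, against 2445 to 3175 in WT day 0 kidneys. Podocyte markers summed to 252.1 to 280.5 in KO, against 301.7 to 444.7 in WT. Sums of every other cell type overlapped, and no marker was called. Adipocyte markers summed to 0.545 and 114.7 in the 2 WT libraries. The part of cell composition in these day 0 values was not tested.

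**Figure D3:**
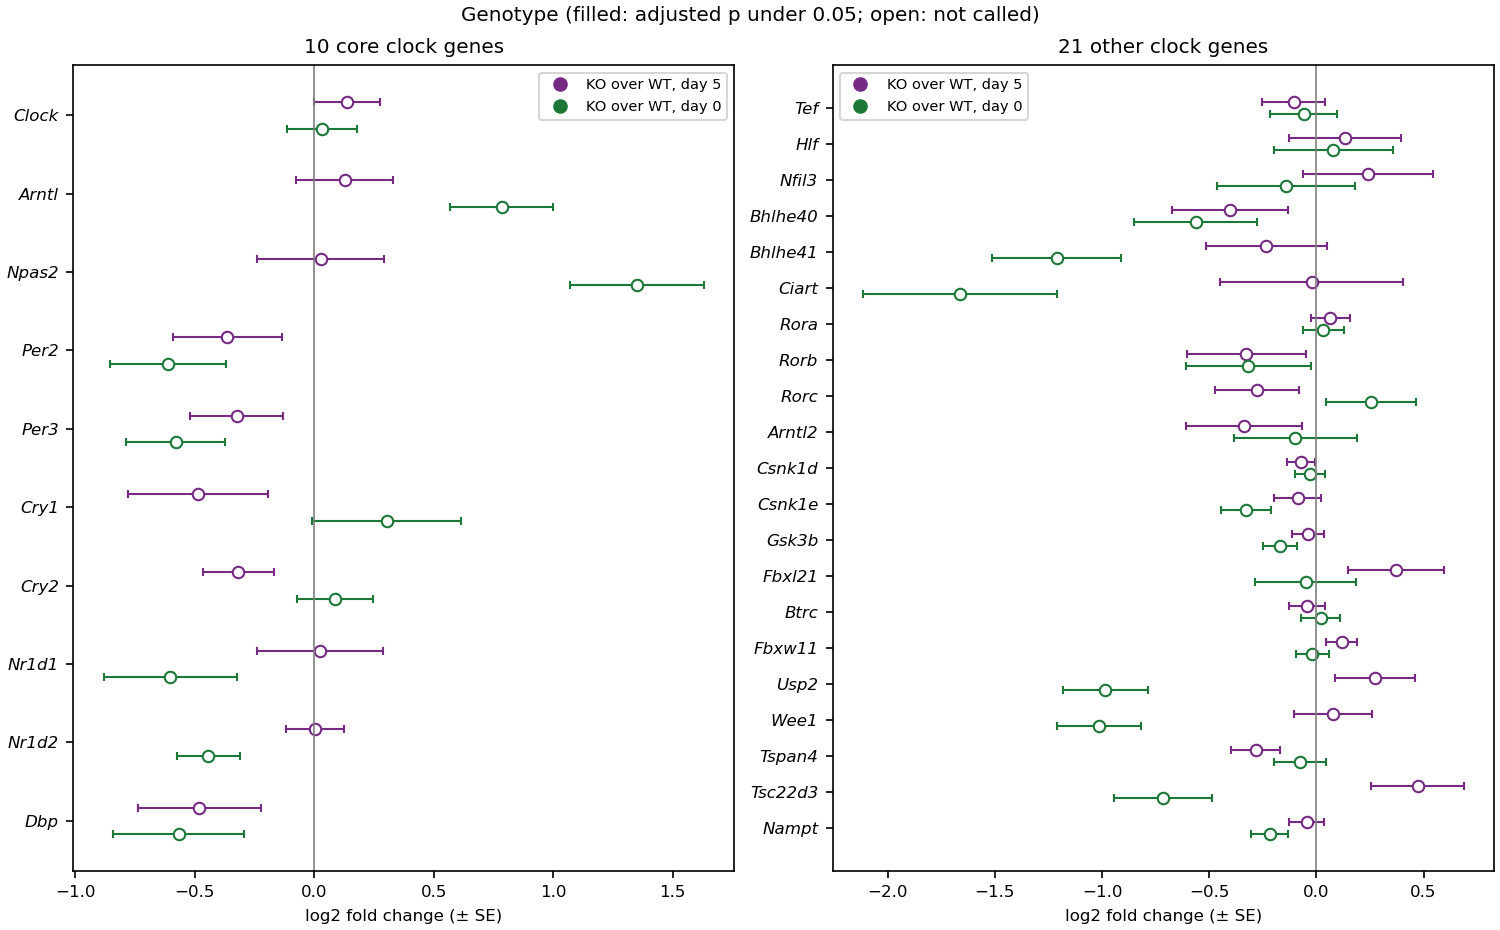
Log2 fold change of KO over WT with its standard error (limma, scaled CPM + 0.5) for the 10 core clock genes (left) and the 21 other clock genes (right) at day 5 (n = 3 and 3) and day 0 (n = 4 and 2). No value has an adjusted p under 0.05. At day 0 Npas2 lies at 1.35 and Arntl at 0.78 above 0, and Per2, Per3, Nr1d1, Nr1d2 and Dbp lie between -0.44 and -0.61, while at day 5 the values of Npas2, Arntl, Nr1d1 and Nr1d2 lie between 0.00 and 0.13 and those of Per2, Per3 and Dbp at -0.36, -0.33 and -0.48. With library size in place of TMM the values of Npas2, Nr1d1 and Nr1d2 at day 5 and of Clock at day 0 turn negative. On the right Ciart lies at -1.66, Wee1 at -1.01 and Usp2 at -0.98 at day 0.

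The difference between the genotypes in their day 5 over day 0 values was tested as an interaction. No member passed, 0.00553% of all genes did (1 gene), and 3 of 10 members had an unadjusted p under 0.05, where 7.61% of all genes did. Npas2 had the largest value (-1.33 ± 0.39, adjusted p = 0.536), followed by Cry1 (-0.79 ± 0.43, adjusted p = 0.699), Arntl (-0.66 ± 0.30, adjusted p = 0.653), Nr1d1 (0.63 ± 0.38, adjusted p = 0.723) and Nr1d2 (0.45 ± 0.18, adjusted p = 0.633). The 3 with an unadjusted p under 0.05 were Npas2, Arntl and Nr1d2. The edgeR test called 1 gene and DESeq2 47 for the interaction, none of them a member. A call in KO and not in WT, as for Arntl and Per2, is therefore not shown to differ between the genotypes. The interaction, the day 0 genotype values and the obstruction values share the same day 0 libraries, so they are not separate evidence.

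Within a day, the 4 relations of Arntl with Npas2, Dbp, Nr1d1 and Per3 were followed over the 6 libraries of both genotypes, 8 relations in all, with exact two-sided permutation tests. At day 0 Arntl ran against Per3, with Pearson's r = -0.94 (exact p = 0.00833, adjusted over the 8 relations 0.0667) and Spearman's rho = -0.94 (exact p = 0.0167, adjusted 0.133), and r = -0.73 without the 2 libraries farthest from the median of Arntl. Those 2 were both WT libraries, at the low end of Arntl, so genotype is part of this relation. Each day 0 r without them is thus that of the 4 KO libraries alone, given with no p. The 2 WT libraries are too few to give a relation within WT. With Npas2 r was 0.83 (exact p = 0.0722, adjusted 0.244) with rho 0.60 (exact p = 0.242), and r was 0.42 without the 2 libraries. With Dbp r was -0.79 (exact p = 0.0917, adjusted 0.244) with rho -0.60, and r was -0.66 without them. With Nr1d1 r was -0.43 (exact p = 0.458, adjusted 0.514), and r was 0.34 without them, so its sign rests on the 2 WT libraries. None of the 8 passed after adjustment.

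At day 5 each of the same relations had a smaller absolute r, and the relation with Nr1d1 had the other sign than at day 0 (-0.43). With Dbp r was -0.72 (exact p = 0.144, adjusted 0.289) and -0.22 without the 2 farthest libraries. With Per3 r was -0.68 (exact p = 0.189, adjusted 0.302) while rho was -0.14, and r was 0.48 without the 2 farthest libraries. With Npas2 r was 0.34 (exact p = 0.514) while rho was -0.03, and r was -0.84 without the 2 farthest libraries. With Nr1d1 r was 0.40 (exact p = 0.45) with rho 0.26, and r was 0.09 without them. Without KO day 5 replicate 3 alone the signs of 3 relations turned, to r = -0.28 with Npas2, -0.13 with Nr1d1 and 0.10 with Per3. Each of these relations at day 5 therefore rests on that library.

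**Figure D4:**
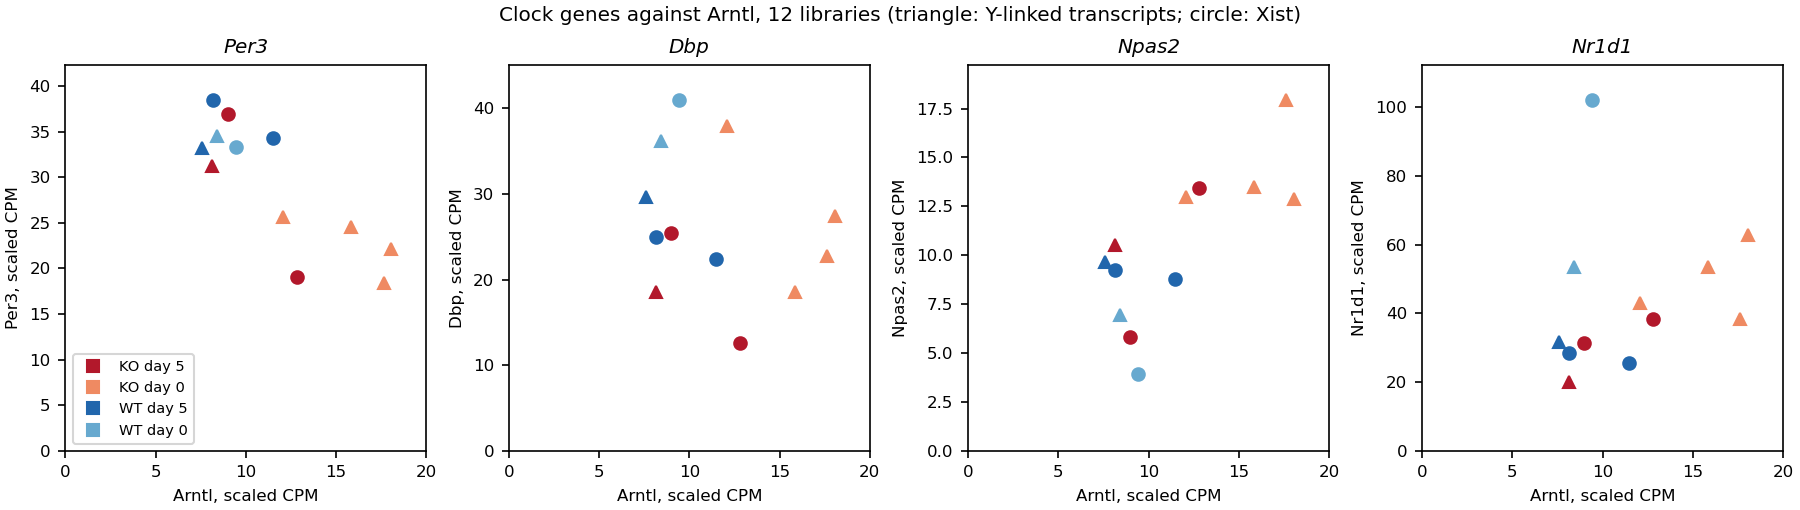
Scaled CPM of Per3, Dbp, Npas2 and Nr1d1 (vertical axes) against scaled CPM of Arntl (horizontal axes) in the 12 libraries, coloured by group, with triangles for Y-linked transcripts and circles for Xist. The 4 KO day 0 libraries lie at 12.1 to 18.1 of Arntl with Per3 at 18.5 to 25.7, KO day 5 replicate 3 lies near them, and the other 7 libraries lie at 7.58 to 11.5 of Arntl with Per3 at 31.2 to 38.4.

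After the mean of its group was taken from each value, Dbp and Arntl were compared with 14006 genes over the 12 libraries, as a description with no p. Values of 1 library share its depth and its scaling. The genes outside the members most like Dbp were Kdm5a (r = 0.92), L3mbtl3 (0.88), Adamts6 (0.87), Aqp4 (0.87) and Adm2 (0.86), and those most like Arntl were Wdcp (0.95), Ncstn (0.95), Mapk1ip1 (0.92), Ap1b1 (0.92) and Evi5l (0.92). Among the members, Dbp went with Cry2 (r = 0.66, rank 137 of 14006 genes) and Per3 (0.65, rank 153). It ran against Arntl (-0.68, rank 13872) and Npas2 (-0.62, rank 13760), which stood near the far end of all genes, while Clock (-0.04, rank 7287) and Nr1d1 (-0.08, rank 7948) stood near the middle. Arntl ran against Per3 (-0.67, rank 13724), while its r was 0.23 with Npas2 (rank 4632) and 0.39 with Nr1d1 (rank 2953).

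A further 21 genes that work beside the core loop were taken as 3 lists. In KO kidneys 9 of the 21 were called higher at day 5, 8 lower and 4 not, and in WT kidneys 5 higher, 8 lower and 8 not. Of all genes, 29.4% were called higher and 25.4% lower in KO, and 24.5% higher and 22.6% lower in WT. Neither genotype comparison nor the interaction called any of them in limma. At an unadjusted p under 0.05 there were 2 of 21 at day 5, where 5.67% of all genes passed, 7 at day 0, where 15.0% did, and 5 for the interaction, where 7.61% did.

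Of 10 feedback and output factors, 4 were called higher and 3 lower in KO (29.4% and 25.4% of all genes), and 2 higher and 3 lower in WT (24.5% and 22.6%). Hlf, which like Dbp and Tef acts on D boxes, had 41.0, 21.2 and 33.1 scaled CPM in KO day 5 kidneys, against 103.5, 132.5, 118.1 and 99.8 in KO day 0 kidneys. It had 34.3, 35.8 and 17.7 in WT day 5 kidneys, against 97.9 and 116.4 in WT day 0 kidneys, and fell by 1.86 ± 0.24 in KO (adjusted p = 3.65e-05) and by 1.92 ± 0.29 in WT (adjusted p = 0.000156). Tef fell with it, by 0.93 ± 0.14 in KO (adjusted p = 9.6e-05) and 0.89 ± 0.16 in WT (adjusted p = 0.000709).

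Arntl2, a relative of Arntl that can also pair with CLOCK, had 7.41, 8.33 and 4.74 scaled CPM in KO day 5 kidneys, against 0.865 to 1.85 in KO day 0 kidneys. It had 7.18, 7.20 and 12.0 in WT day 5 kidneys, against 1.51 and 1.69 in WT day 0 kidneys, and rose by 1.87 ± 0.25 in KO (adjusted p = 4.8e-05) and 2.11 ± 0.30 in WT (adjusted p = 9.73e-05). Its day 5 libraries were all above the day 0 libraries in both genotypes, unlike those of Arntl. Bhlhe40 (DEC1), a repressor at E boxes, rose by 1.52 ± 0.25 in KO (adjusted p = 0.000249) and 1.36 ± 0.30 in WT (adjusted p = 0.00249). Its WT day 0 libraries differed widely, at 67.4 and 156.6 scaled CPM, against 218.6 to 297.0 in WT day 5 libraries. Bhlhe41 (DEC2) was called in KO alone (1.17 ± 0.26, adjusted p = 0.00238) and Ciart (CHRONO), a repressor of CLOCK and BMAL1, in WT alone (-1.99 ± 0.48, adjusted p = 0.00415), and their interactions did not pass (adjusted p = 0.646 and 0.619). The WT day 0 libraries of Ciart also differed widely, at 9.81 and 19.3 scaled CPM, against 2.50 to 3.54 in WT day 5 libraries.

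Of 6 kinases and ubiquitin ligase parts, which set how long PER and CRY proteins last, 3 were called higher and 3 lower in KO (29.4% and 25.4% of all genes), and 2 higher and 2 lower in WT (24.5% and 22.6%). Csnk1e, casein kinase 1 epsilon, had 48.1, 38.9 and 41.0 scaled CPM in KO day 5 kidneys, against 14.1 to 17.7 in KO day 0 kidneys, and 46.3, 45.7 and 43.6 in WT day 5 kidneys, against 19.9 and 18.1 in WT day 0 kidneys. It rose by 1.47 ± 0.10 in KO (adjusted p = 1.92e-07) and 1.23 ± 0.12 in WT (adjusted p = 5.23e-06). Csnk1d rose by 0.39 ± 0.06 and 0.43 ± 0.07. Fbxl21, an F-box protein that acts on CRY proteins, fell by 0.94 ± 0.21 in KO (adjusted p = 0.00205) and 1.36 ± 0.25 in WT (adjusted p = 0.00063). Fbxw11, which acts on PER proteins, fell by 0.32 ± 0.07 in KO (adjusted p = 0.0017) and 0.46 ± 0.08 in WT (adjusted p = 0.000572). Btrc, the close relative of Fbxw11, was called in KO (-0.29 ± 0.08, adjusted p = 0.00802) and had -0.23 ± 0.10 in WT (adjusted p = 0.0694). In deposited CPM, without TMM, Btrc had 34.2, 32.0 and 30.6 in KO day 5 libraries, against 28.4, 24.8, 31.4 and 31.7 at day 0. Fbxw11 had 105.1, 112.6 and 106 CPM in KO at day 5, against 99.05, 88.85, 95.84 and 111.2 at day 0. The falls of both genes in KO are thus relative to the TMM scaling.

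Of 5 widely cycling outputs, 2 were called higher and 2 lower in KO (29.4% and 25.4% of all genes), and 1 higher and 3 lower in WT (24.5% and 22.6%). Usp2, a ubiquitin protease, had 69.2, 55.5 and 110.3 scaled CPM in KO day 5 kidneys, against 126.1 to 157.3 in KO day 0 kidneys. It had 63.1, 64.3 and 59.1 in WT day 5 kidneys, against 251.6 and 297.2 in WT day 0 kidneys, and fell by 0.87 ± 0.18 in KO (adjusted p = 0.00102) and 2.13 ± 0.21 in WT (adjusted p = 4.36e-06). Its day 0 libraries in KO were all below those in WT (-0.98 ± 0.20, adjusted p = 0.0813). Wee1, a kinase that holds back mitosis and is known as a clock output in mouse liver, had 9.71 to 12.0 scaled CPM in KO day 0 kidneys, against 20.2 and 24.1 in WT day 0 kidneys (-1.01 ± 0.19, adjusted p = 0.0813). It rose by 1.25 ± 0.17 in KO (adjusted p = 5.28e-05), with 0.16 ± 0.20 in WT (adjusted p = 0.565), and the interactions of Usp2 (1.26 ± 0.27, adjusted p = 0.375) and Wee1 (1.09 ± 0.27, adjusted p = 0.402) did not pass. Nampt, the rate-limiting enzyme of NAD salvage, fell by 0.58 ± 0.08 in KO and 0.75 ± 0.09 in WT. Tspan4, a tetraspanin, rose by 0.86 ± 0.11 and 1.06 ± 0.13. Tsc22d3 (GILZ), a target of the glucocorticoid receptor, was at 0.40 ± 0.20 in KO (adjusted p = 0.107) and fell by 0.78 ± 0.24 in WT (adjusted p = 0.0173), with an interaction of 1.19 ± 0.31 (adjusted p = 0.48).

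Of the 21 genes, 8 had KO day 0 libraries that stood apart from WT day 0, where 25.3% of all genes did, and all 8 lay below WT (12.4% of all genes). They were Ciart (-1.66), Bhlhe41 (-1.21), Wee1 (-1.01), Usp2 (-0.98), Tsc22d3 (-0.72), Csnk1e (-0.33), Nampt (-0.22) and Gsk3b (-0.17), and none passed after adjustment. In the core loop Per2, Per3 and Nr1d2 lay below WT in the same libraries and Arntl and Npas2 above, as given for day 0.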

How the data were processed

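RNA of left kidneys was sequenced in 12 libraries with 50-base reads. Per the submitters' processing notes, STAR, SAMtools and HTSeq were used with GRCm38.p6, with no versions. The deposited values are CPM, made by the authors from the reads counted to genes. Every column steps by 1 read, and 100% of 665652 values lay within 0.001 of a whole number of reads.

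CPM was divided by TMM factors (edgeR 4.0.16), and log2(CPM + 0.5) was fitted with limma 3.58.1 (empirical Bayes with trend, R 4.3.3) in all 12 libraries in 4 groups. Fold changes are on this log2 scale, which understates the change of low genes. Genes were kept by filterByExpr (minimum count 10, total 15), which left 18093 genes with 99.9% of reads. The Benjamini-Hochberg adjustment ran over all of them, with calls at 0.05. On the recovered reads, the edgeR quasi-likelihood test called 9834 genes for obstruction in KO, 8454 in WT, 0 for genotype at day 5, 3 at day 0 and 1 for the interaction, against 9915, 8523, 0, 3 and 1 in limma. DESeq2 1.42.0, other scalings, filters and pseudocounts, the sex-chromosome pattern as a covariate and leaving out each library were the other alternatives, 20 or 21 for each member's value.

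On simulated data, 81% of 2-fold and 96% of 4-fold changes were recovered for obstruction in KO (17470 genes), 58% and 90% in WT (17475), 67% and 96% for KO against WT in obstructed kidneys (17456), and 67% and 95% for KO against WT before obstruction (17486). There only a small random set of genes above a cut on level was changed, in either direction, and all other genes had equal means. Far more genes differed with obstruction in the real data, so these shares need not hold there. Lengths and overlaps come from GENCODE M21, which holds 55230 of the identifiers and not the other 241; promoters come from RefSeq. Scaled CPM per kb divides by all exon bases of a gene. The members and the lists were chosen with earlier results of these data known. All 10 members are named in each comparison, up to 6 genes of each further list by their smallest adjusted p for obstruction, and the 5 genes most like Dbp and most like Arntl with a mean log2 value of at least 1. Results for 1 gene of these lists are not reported here, and the counts leave it out.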

Additional observations from a re-analysis of the deposited data

Results flagged for a closer look

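In KO day 0 kidneys the highest library of Npas2, replicate 2, had 17.92 scaled CPM, while the other libraries had 12.9, 13.0 and 13.5. Its gap to the next library was 0.871 of the whole range of the group. Of the 10 members, tested in this group of 4 libraries, it was the one flagged, and chance flags about 1 in 20 groups.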

How the results depend on the processing

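No paired analysis was possible because the labels carry no replicate numbers shared across groups. Over the 10 members and 5 comparisons, with each value recomputed under every alternative, 934 of 1030 values kept direction and call, 24 lost a call, 27 gained one and 45 changed sign, 1 of them with a call. DESeq2 gave no adjusted p to the 10 members for genotype at day 5, and those values are left out. The causes of these changes were not tested.

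Members called higher for obstruction in KO (2) were 1 with RLE size factors, 4 with library size only, 0 with no filter, 0 with the sex-chromosome pattern as a covariate, 1 with only the compared groups and 0 to 3 when 1 library was left out. Members called lower there (2) were 0 with library size only, 3 with the sex-chromosome covariate and 1 to 4 when 1 library was left out. Members called higher in WT (1) were 2 with DESeq2, 4 with library size only, 2 with 0.1 CPM added, 2 with the sex-chromosome covariate, 3 with only the compared groups and 1 to 3 with 1 library left out; those called lower (2) were 1 with library size only, 3 with the covariate and 3 with only the compared groups. Higher members at day 0 between genotypes (0) were 2 with DESeq2 and 0 to 1 with 1 library left out.

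Over all genes, calls between genotypes at day 5 (0) were 51 with DESeq2, 2 with 1 CPM added, 3 with the sex-chromosome covariate and 0 to 23 with 1 library left out, the 23 without KO day 5 replicate 2. At day 0 (3) they were 370 with DESeq2, 6 with RLE, 15 with library size only, 9 with no filter, 8 with 0.1 CPM added, 19 with the covariate, 10 with only the compared groups and 1 to 638 with 1 library left out. For the interaction (1) they were 47, 0 with library size only, 0 with no filter, 3 with the covariate and 0 to 107 with 1 library left out, the 107 without WT day 0 replicate 1.

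Signs turned for these values. With library size only, Clock became 0.30, Cry2 0.43 and Nr1d2 0.26 for obstruction in KO, Clock 0.16 in WT, Npas2 -0.0171, Nr1d1 -0.0208 and Nr1d2 -0.0423 between genotypes at day 5, and Clock -0.0410 at day 0. Cry2 in KO was 0.0056 with edgeR. Arntl in WT was -0.0176 with RLE, -0.0036 with no filter, -0.0474 with the covariate and -0.0066 with only the compared groups. Nr1d2 at day 5 between genotypes was -0.0125 with no filter and -0.0016 with only the compared groups, and the interaction of Clock was -0.0337 with the covariate.

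With 1 library left out, Cry2 in KO ranged from -0.14 to 0.16, Arntl in WT from -0.17 to 0.12 and Per3 in WT from -0.0050 to 0.10. Between genotypes at day 5 the ranges were -0.0043 to 0.26 for Clock, -0.0595 to 0.30 for Arntl, -0.22 to 0.35 for Npas2, -0.18 to 0.29 for Nr1d1 and -0.15 to 0.10 for Nr1d2, and Cry2 at day 0 ranged from -0.0001 to 0.19. The interaction ranged from -0.0355 to 0.23 for Clock and from -0.16 to 0.34 for Dbp. For the relations at day 5, r ranged from -0.28 to 0.49 with Npas2, -0.13 to 0.62 with Nr1d1 and -0.87 to 0.10 with Per3.

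Cry1 had as few as 40 reads in a library, so its values carry the most counting error among the members. Groups of 2 to 4 libraries limit all comparisons.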
